A study of Mus musculus with 19 samples.

Results

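When neurospheres were moved into differentiation medium, 2890 of the 90154 accessible regions of the series lost most of their signal within the first day and did not regain it. These early-lost peaks were selected on the group means of the untreated libraries. A peak was kept if its mean normalised value was at least 50 in neurospheres (NSPs), if its means at 24 h, 72 h and 1 week were each at most 0.4 of the NSP mean, and if its 72 h mean was at least 8. They made up 3.21% of all peaks and 4.72% of the 61278 peaks with an NSP mean of at least 50. The floor at 72 h left out 17 peaks that met the other limits.

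The assay was ATAC-seq: a transposase cuts open DNA and leaves adapters there, and reads pile up where chromatin is open. The NSPs were neural stem and progenitor cells from the ventricular zone of wild type C57BL/6J mouse embryos at embryonic day 14, grown as floating spheres with EGF at 20 ng/ml (3 libraries, named 0h in the labels). The other groups had been plated on poly-L-ornithine and given 10% fetal bovine serum in place of the proliferation medium, which takes away the added EGF and B27. They were the untreated 24 h (3 libraries), 72 h (3) and 1 week (4) groups, and the 24 h TNF (3) and 72 h TNF (3) groups, which received the inflammatory cytokine tumor necrosis factor at 50 ng/ml. The sample titles call all cells astrocytes, NSPs included, and they do not say that the libraries of a group came from separate embryos or cultures. The study's methods describe cultures from single brains and, for its data in general, independent biological experiments, without saying which ATAC-seq library came from which. If libraries shared a culture, p-values would measure technical spread only. These were bulk samples, in which fewer cells of a type and less accessibility per cell cannot be told apart. The library names of the 72 h, 72 h TNF and 1 week groups carry the tag Luc, and those of the NSP and 24 h groups do not. A change between 24 h and 72 h therefore cannot be told apart from whatever the tag stands for, while 24 h against NSP, and TNF against untreated cells at one time, lie within a tag.

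Neural progenitors are kept dividing and undifferentiated by growth factor signals that run through the ERK pathway and by Notch signalling, in which ligands such as Dll1 and Jag1 release the receptor's intracellular part to work with the DNA-binding protein Rbpj on targets such as Hes5. Neurospheres hold cells able to give neurons, astrocytes and oligodendrocytes, and enhancers of such progenitors are bound by SOX and basic helix-loop-helix factors. Enhancers are usually short open regions away from gene starts, and they close when a cell leaves the state in which they are used, while promoters tend to stay open.

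Few of the early-lost peaks lay at promoters. The 250 bases before a gene start, as given by RefSeq for assembly GRCm38.p6, overlapped 76 of the 2890 peaks. They belonged to 77 genes, 48 of them lncRNA genes and 29 protein-coding. This overlap was not counted over all peaks, but 1.55% of the early-lost peaks and 12.6% of all peaks lay within 1 kb of a protein-coding gene start. Of windows with at least 200 bases in a peak, 34 were of lncRNA and 21 of protein-coding genes, against 1183 and 8001 in other peaks with an NSP mean of at least 50. At 8 protein-coding genes at least 200 of the 250 bases lay in an early-lost peak with an NSP mean of at least 400. These are Hes5, Rap1gap, Plxnb3, Tle6, H3c2, Opalin, Ptprg and 1600014C23Rik. The first 6 windows are printed to show the range of promoters concerned, with and without matches, among them a Notch target, signalling genes, a replication histone gene and the oligodendrocyte gene Opalin. Each runs 5′ to 3′ on the gene's own strand and ends at the base before the start. Capitals mark the letters of 6 motifs on either strand, which are the RBPJ core TGGGAA, the E-box CAGCTG of basic helix-loop-helix factors (its own reverse complement), the SOX core CATTGT, the AP-1 site TGANTCA, the CCAAT box and the TATA box TATAAA.
Hes5: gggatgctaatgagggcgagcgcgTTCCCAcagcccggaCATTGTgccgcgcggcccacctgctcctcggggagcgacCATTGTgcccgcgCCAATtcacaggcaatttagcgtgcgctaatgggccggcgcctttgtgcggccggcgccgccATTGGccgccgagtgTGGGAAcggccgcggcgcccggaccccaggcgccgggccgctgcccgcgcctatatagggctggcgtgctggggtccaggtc
Rap1gap: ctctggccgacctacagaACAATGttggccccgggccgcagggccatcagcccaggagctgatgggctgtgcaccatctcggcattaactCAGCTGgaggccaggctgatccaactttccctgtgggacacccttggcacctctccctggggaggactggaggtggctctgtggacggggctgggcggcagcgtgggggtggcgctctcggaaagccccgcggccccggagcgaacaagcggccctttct
Plxnb3: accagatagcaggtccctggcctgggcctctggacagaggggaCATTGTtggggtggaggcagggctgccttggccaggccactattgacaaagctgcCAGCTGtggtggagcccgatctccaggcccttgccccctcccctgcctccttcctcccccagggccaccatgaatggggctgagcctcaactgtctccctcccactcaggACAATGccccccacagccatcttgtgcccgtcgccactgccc
Tle6: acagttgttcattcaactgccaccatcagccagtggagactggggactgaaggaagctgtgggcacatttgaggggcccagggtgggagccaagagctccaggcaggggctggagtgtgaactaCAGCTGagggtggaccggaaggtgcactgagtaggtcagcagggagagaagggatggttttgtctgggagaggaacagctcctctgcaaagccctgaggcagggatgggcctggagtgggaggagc
H3c2: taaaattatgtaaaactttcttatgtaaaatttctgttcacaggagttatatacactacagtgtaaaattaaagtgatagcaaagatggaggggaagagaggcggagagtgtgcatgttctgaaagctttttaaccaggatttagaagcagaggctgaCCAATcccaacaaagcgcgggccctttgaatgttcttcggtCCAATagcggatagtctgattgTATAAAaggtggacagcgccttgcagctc
Opalin: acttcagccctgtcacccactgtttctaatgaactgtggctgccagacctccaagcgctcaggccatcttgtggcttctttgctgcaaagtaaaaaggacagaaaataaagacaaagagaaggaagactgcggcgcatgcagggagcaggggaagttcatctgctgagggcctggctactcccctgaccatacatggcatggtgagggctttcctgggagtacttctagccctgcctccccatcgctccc
The Hes5 window (chr4:154960673-154960922, plus strand) lay wholly in its peak and held RBPJ letters that begin 226 and 82 bases before the start, SOX letters at 211 and 172, and CCAAT letters at 159 and 97. The windows of Rap1gap (chr4:137681353-137681602, plus strand), Plxnb3 (chrX:73756853-73757102, plus strand, 211 of 250 bases in the peak) and Tle6 (chr10:81597368-81597617, minus strand) each held CAGCTG, at 160, 152 and 126 bases. The H3c2 window (chr13:23752095-23752344, plus strand) held CCAAT boxes at 92 and 51 bases and a TATA box at 29. The Opalin window (chr19:41077114-41077363, minus strand, 249 of 250 bases in the peak) held none of the 6 motifs, nor did that of Ptprg, and that of 1600014C23Rik held CAGCTG at 172 bases.

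CAGCTG stood in 24 of the 55 windows that had at least 200 bases in an early-lost peak (43.6%). It stood in 12.1% of the 9184 windows placed in the same way in other peaks with an NSP mean of at least 50, and in 13.0% of all 32851 windows of the table. Among protein-coding genes it was in 9 of 21 windows against 11.5% of 8001, and among lncRNA genes in 15 of 34 against 16.2% of 1183. SOX letters stood in 11 of the 55 windows (20.0%), against 5.38% in other peaks and 10.7% of all windows. RBPJ letters were in 21.8% of the 55, 20.1% in other peaks and 21.6% of all. AP-1 letters were in 5.45%, 3.77% and 6.75%, and the CCAAT box in 25.5%, 39.8% and 33.9%. The TATA box was in 9.09%, 4.91% and 12.4%. The windows also differed in composition, with a median of 4 CG dinucleotides and 52.8% G+C in early-lost peaks against 18 and 61.6% in other peaks, and the part of composition in the motif shares was not tested. The promoter table does not cover chromosome 18, which held 113 of the early-lost peaks.

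The drop was seen over the whole set and in every differentiating library, as the plot by library shows. The median value of the 2890 peaks was 147, 194 and 213 in NSP replicates 1, 2 and 3. It lay between 51.7 and 57.5 at 24 h, between 39.9 and 42.1 at 72 h and between 23.4 and 28.6 at 1 week. In the TNF libraries, which played no part in the choice, it lay between 54.9 and 56.6 at 24 h and between 38.4 and 45.8 at 72 h. The median over all peaks stayed between 78.9 and 87.2 in the 19 libraries. The share of reads in peaks that fell in the early-lost peaks was 3.62%, 4.60% and 4.95% in the NSP libraries, 1.44% to 1.59% at 24 h and 0.687% to 0.743% at 1 week.

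**Figure D1:**
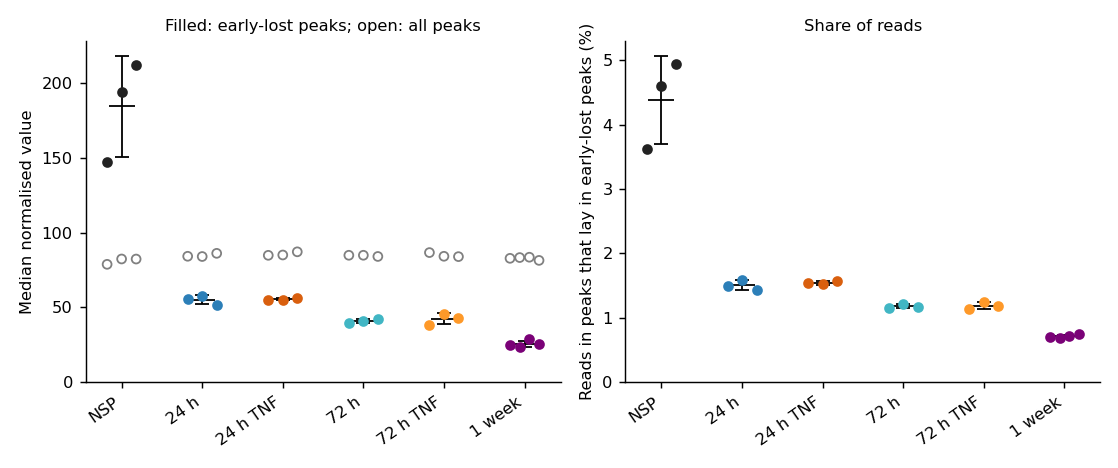
Left, median normalised value (arbitrary units) of the 2890 early-lost peaks (filled) and of all 90154 peaks (open) in each library by group; right, percent of reads in peaks that fell in the early-lost peaks. Bars are the mean ± SD over the filled points of a group. NSP replicate 1 is the lowest NSP library in both panels, and the 1 week libraries are the lowest of all.

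NSP replicate 1 stood apart. In 1995 of the 2890 peaks (69.0%) it was the lowest NSP library, and its value was a median of 0.731 of the mean of replicates 2 and 3, against 0.982 over the peaks with an NSP mean of at least 50. In 613 peaks (21.2%) it was under 0.5 of that mean and in 63 peaks over 2 times it. When the same rule was applied without this library it gave 3791 peaks and kept 92.5% of the 2890, and in only 34.8% of the 3791 did replicate 1 itself, used alone as the NSP value, meet all 3 ratio limits (53.2% at a limit of 0.5). The same check gave 77.3% for NSP replicate 2 and 85.8% for replicate 3. For a left-out 24 h library, set against the NSP mean, it gave 68.3% to 80.9%, for 72 h 90.7% to 93.4% and for 1 week 96.1% to 99.0%. All 3 NSP libraries lay above all 3 libraries of 24 h in 2765 of the early-lost peaks, a separation found in 25.6% of all peaks; it is fixed in large part by the rule.

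Most of the loss at these peaks had occurred by 24 h, and it went on. The selection values were a median of 0.316 of the NSP mean at 24 h, 0.238 at 72 h and 0.144 at 1 week, and on the log2 scale the 24 h level had covered a median of 62.2% of the way to the 1 week level (quartiles 52.3% and 75.5%). Between 24 h and 72 h the mean was lower at 2345 peaks and higher at 545, with a median log2 ratio of -0.35 against -0.07 over peaks with an NSP mean of at least 50. Between 72 h and 1 week it was lower at 2571 and higher at 319, with medians of -0.65 and 0.03. At 166 peaks the 1 week mean was above the 24 h mean. These means chose the peaks and carry no test. Within groups, the early-lost peaks scattered more than the comparison peaks, with a median SD of 0.36 against 0.25 on the log2 scale in NSPs and 0.40 against 0.20 at 1 week. At 1 week their library medians were low, 23.4 to 28.6 against 81.5 to 83.6 over all peaks, and in NSPs replicate 1 stood apart. The part of either in the scatter was not tested.

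**Figure D2:**
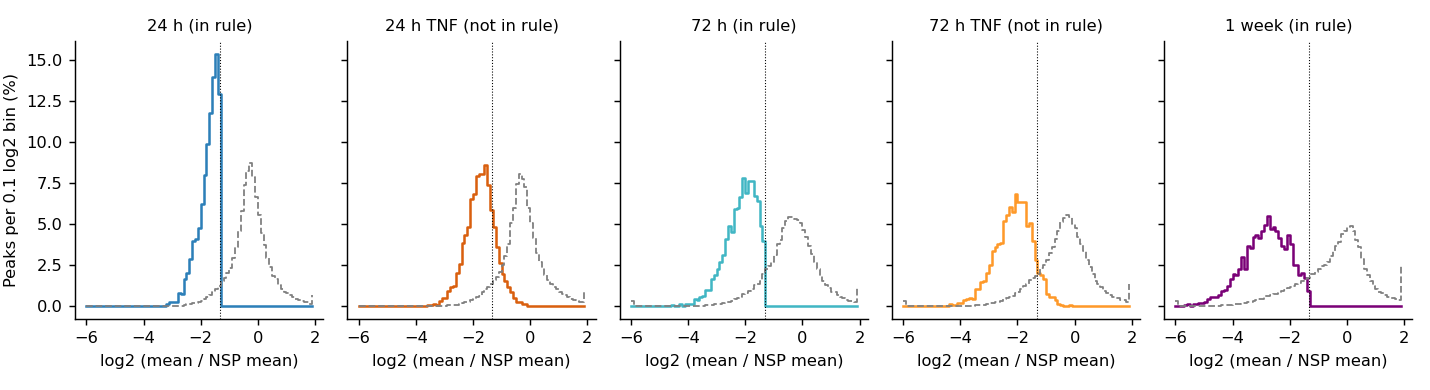
Distribution of log2 (group mean / NSP mean) for the 2890 early-lost peaks (coloured) and for the 61278 peaks with an NSP mean of at least 50 (grey, dashed), in 5 differentiating groups. The dotted line is the limit of 0.4, the y axis is the percent of peaks per bin of 0.1, and values beyond the axis ends are counted in the end bins. In the 3 untreated panels the limit is part of the rule; in the TNF panels part of the peaks lies to its right.

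The limits cut through a continuous range. The members nearest to the NSP limit had means of 50.1 and 50.2, near Igsf10 and Mrgpra4, and the nearest peaks outside 49.9 and 49.8, near Htr2a and Pdzrn4. At the 24 h limit, peaks near E330021D16Rik and Smim43 were kept with NSP means of 187 and 102 and 24 h means of 74.9 and 40.6, and peaks near Dnajb12 and Zbtb20 were left out with 435 and 68.0 against 174 and 27.2. At the 72 h limit the Tiam1 peak was kept, with an NSP mean of 396 and a 72 h mean of 158, and the Atp23 peak was not, with 153 and 61.4. At the 1 week limit the ratios were 0.399 at Rnf19b and Xpnpep1 and 0.404 and 0.406 at Ubtf and Mgat5. At the floor of 8 the 72 h means were 8.39 and 8.40 near Pou3f4 and Hs3st4, inside, and 7.98 and 7.91 near Poc1b and Bche, outside.

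The tallest early-lost peak lay in Xylt1, which encodes a xylosyltransferase that starts proteoglycan sugar chains. Its values were 2323, 2335 and 2773 in NSPs, 457, 524 and 335 at 24 h, 206, 242 and 256 at 72 h, and 208, 211, 233 and 243 at 1 week. With TNF they were 313, 340 and 267 at 24 h and 194, 183 and 184 at 72 h. The NSP libraries were thus far above every later library, and the TNF libraries lay below the untreated ones at 72 h and overlapped them at 24 h. The second by NSP mean, in Il1rapl1, showed the opposite picture. Its NSP values were 5035, 738 and 1213, so the mean of 2329 rested on replicate 1, and its 24 h values of 732, 907 and 655 overlapped those of NSP replicate 2. The other 8 of the 10 tallest lay near Gm52030, Slc6a11 (a GABA transporter), Nrsn1, Mcur1, Tut7, Epn2, Rhbg and Sall3, with NSP means from 2090 to 2319 and 1 week means from 109 at Rhbg to 664 at Mcur1.

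The deepest losses at 24 h were mostly at low peaks. The smallest ratios were 0.0884 near Bend4, 0.0901 near Prok1, 0.0982 near Xpnpep2, 0.104 near Pou3f1 (a POU transcription factor of neural cells) and 0.110 near 4931429L15Rik, with NSP means of 59.6, 421, 83.7, 62.6 and 97.1. The Prok1 peak, the tallest of these, had NSP values of 94.0, 512 and 656, 24 h values of 38.7, 44.3 and 30.8, and 1 week values of 37.9, 34.3, 33.0 and 26.8. NSP replicate 1 was again the low library, though it stayed above all later ones. The other ratios rested on few reads, as 1 read was worth 1.14 to 1.48 in the 24 h libraries. Their 24 h values were 5.69, 1.48 and 8.62 near Bend4, 2.28, 16.2 and 6.16 near Xpnpep2, and 10.2, 4.43 and 4.93 near Pou3f1. Near 4931429L15Rik they were 5.69, 17.7 and 8.62.

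The early-lost peaks lay away from gene ends. The centre of 96 of them (3.32%) was within 1 kb of the start or end of a protein-coding gene, against 14.9% of all peaks and 20.1% of peaks with an NSP mean of at least 50. Chosen without NSP replicate 1, the share was 3.64%. Within 1 kb of a gene start of the promoter table lay 43 of 2776 (1.55%), against 12.6% of all peaks. They were as often inside a protein-coding gene as other peaks (54.0% against 53.2%), and their median distance from a gene end was 33.4 kb against 20.1 kb. For comparison, 1837 peaks were lost later, with an NSP mean of at least 50, a 24 h mean of at least 0.8 of it, a 72 h mean of at least 8 and a 1 week mean of at most 0.4 of it. Of these, 6.04% lay within 1 kb of a gene end. The share of a chromosome's peaks that were lost early ranged from 2.48% on chromosome 11 to 3.86% on chromosome 12.

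**Figure D3:**
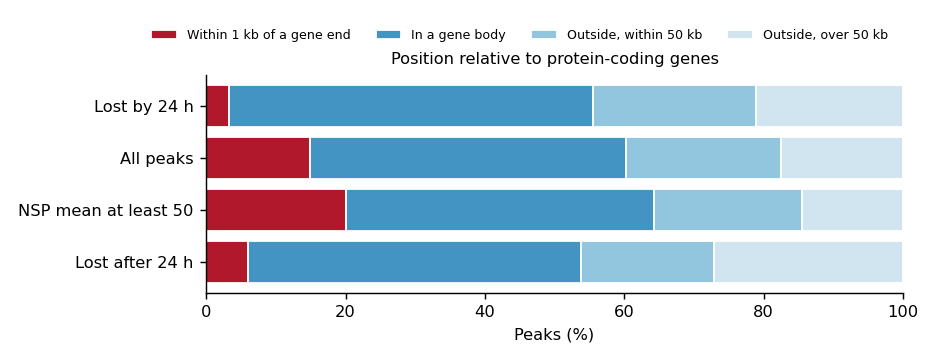
Position of peak centres relative to protein-coding genes, as percent of each set: early-lost peaks, all peaks, peaks with an NSP mean of at least 50, and peaks lost after 24 h. Red is within 1 kb of a gene end, blue in a gene body beyond that, and the lighter blues are outside genes within or beyond 50 kb. The red part is 3.32% of the early-lost peaks and 14.9% of all peaks.

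Early-lost peaks gathered in stretches. Another such peak lay within 50 kb of 907 of them (31.4%), while 17.4% of the other peaks with an NSP mean of at least 50 had an early-lost peak that near. The densest run within 200 kb held 12 of them among 28 peaks, between Kcnd3, a voltage-gated potassium channel gene, and Inka2 (chr3:105530705-105723583). Their NSP means ran from 78.8 to 1989 and their 24 h ratios from 0.125 to 0.388, while the 11 other peaks of that stretch with an NSP mean of at least 50 had a median ratio of 0.689. In Dscam, a neuronal cell adhesion gene, 7 of the 8 peaks of a stretch of 81.2 kb were lost early. A stretch with Sox8 held 8 of 24, one at Chd7, which encodes a chromatin remodeller, 7 of 12, and one at Pou3f1 6 of 19. The last 3 stretches also held peaks that kept more signal. Their other peaks with an NSP mean of at least 50, 16, 3 and 11 in number, had median 24 h ratios of 0.716, 0.961 and 0.807. Here and at Kcnd3 the other peaks are those the rule left out, so their higher ratios follow in large part from the rule.

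Counted by gene, by overlap or else by the nearest gene end, the early-lost peaks belonged to 2070 genes, 1554 of them with 1 peak and 70 with at least 4. Xylt1 had 9 of its 54 peaks, Dscam 8 of 35, Kcnd3 8 of 47, Arhgap26 8 of 64 and Nav2 8 of 75. Chd7 had 7 of 20, Pou3f1 7 of 29, Sox11 7 of 36 and Nfia 7 of 78, and Dpf3 had 6 of 18. Sox11 and Pou3f1 are transcription factors of neural precursors, and Nfia drives glial fate.

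Among the gene lists, the oligodendrocyte lineage list had the highest share. Of the 83 peaks assigned to its genes 14 were lost early (16.9%), against 3.21% of all peaks. They were assigned to 6 genes, Olig1, Olig2, Pdgfra, Cspg4, Sox8 and Cnp. Their median ratio was 0.265 at 24 h and 0.0992 at 1 week. Olig1 and Olig2 encode the basic helix-loop-helix factors that specify oligodendrocytes, and Pdgfra and Cspg4 are genes of their precursors. The early-lost peak assigned to Olig1, 34.0 kb from the gene, had NSP values of 1962, 1204 and 1532, 24 h values of 371, 463 and 265, a 72 h mean of 161, and 1 week values of 83.8, 77.2, 92.4 and 119. It stepped down at each time, with no overlap between NSP and any later library. Of the 4 Olig2 peaks, the one at 2.85 kb from the gene kept more, with 1362 and 1437 in NSP replicates 2 and 3, 903 in replicate 1, 308 to 339 at 24 h and 330 to 414 at 1 week. The peak at 4.97 kb had 592, 839 and 976 in NSPs, 140 to 155 at 24 h, 58.6 to 77.8 at 72 h and 45.9 to 93.3 at 1 week. The 4 Pdgfra peaks had NSP means from 128 to 201 and 1 week means from 5.26 to 25.3, and the 3 Cspg4 peaks had 262 to 984 and 23.4 to 58.4. Within 1 kb of the ends of oligodendrocyte lineage genes, the summed mean value of 11 peaks was 5472 in NSPs, 3754 at 24 h and 3004 at 1 week. A change in the mix of cells was not tested beyond these values.

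In the Notch list 10 of 185 peaks were lost early (5.41%). By overlap or else the nearest gene end, they were assigned to ligands, the DNA-binding protein, co-factors and targets. The ligand genes were Dll1, with peaks 4.78 and 74.65 kb from a gene end, and Jag1, with peaks at 15.22 and 341.1 kb. The Rbpj peak lay at 29.97 kb, and the peak in the co-activator gene Maml2 at 9.944 kb. The peaks of the feedback gene Nrarp lay at 2.945 and 17.22 kb. The targets were Hes5 (0.158 kb) and Heyl (2.535 kb). The promoter peak of Hes5 (chr4:154960534-154961034), whose sequence is given above, was the tallest. Its values were 2209, 1809 and 1910 in NSPs, 827, 816 and 590 at 24 h, 176, 221 and 195 at 72 h and 86.4, 74.0, 90.2 and 121 at 1 week. It lost signal at each step without overlap between successive untreated groups. The Maml2 peak went from 684, 1084 and 1282 to 186 to 237 at 24 h and 29.6 to 46.1 at 1 week. The 2 Jag1 peaks had NSP means of 194 and 219 and 1 week means of 15.7 and 9.65.

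The list of EGF signalling and ERK feedback genes had 19 of 255 peaks lost early (7.45%), assigned to 12 genes. These included Egfr, the EGF receptor, the ERK-induced genes Egr1, Ier3, Phlda1, Myc, Ccnd1 and Etv1, and the feedback inhibitors Dusp6, Spry1, Spry2, Spry4 and Spred1. An Etv1 peak lay 431 kb from the gene, and the Myc peaks lay 114.5 to 222.3 kb away. At 1 week the list's members kept a median of 0.222 of the NSP mean, more than the 0.144 of all early-lost peaks. The Ier3 peak went from a mean of 976 to 225 at 24 h and 27.6 at 1 week. The taller Ccnd1 peak, 1.82 kb from this cyclin gene, went from 790 to 255 and then 308, and the Dusp6 peak from 360 to 70.7 and then 87.4, so neither was lower at 1 week than at 24 h. NSP replicate 1 was the lowest NSP library at most of these peaks, among them every Myc, Phlda1 and Spry2 peak. The tallest Myc peak had 294, 682 and 772 in NSPs, so the size of such losses rested largely on replicates 2 and 3. At the Egfr and Spred1 peaks it was the highest. The Dusp6 peak had 89.4, 459 and 532 in NSPs, and the Egr1 peak had 197, 922 and 835, so that replicate 1 lay within the 1 week range of both.

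Of the proneural list 11 of 135 peaks (8.15%) were lost early, 7 of them assigned to Sox11 from 183 to 382 kb away and the others to Sox4, Neurog2, Neurod4 and Dlx6. The neural progenitor list had 6 of 231 (2.60%), assigned to Hmga2, Nr2f1, Sox1, Sox2 and Zic1. The Hmga2 peaks lay 27.4 kb (in the gene) and 105 kb from a gene end. The Sox1, Sox2, Zic1 and Nr2f1 peaks lay 44.3, 163, 520 and 800 kb away. The astrocyte list had 16 of 311 (5.14%), of which 7 were assigned to Nfia and 4 to Nfib, and the neuron list 7 of 103 (6.80%). The cell cycle list had 3 of 82, in Mcm2 and assigned to Ccne1 and Mki67 from 18.2 and 330 kb away. The vascular list had 3 of 70, assigned to Cdh5 from 5.76, 59.0 and 137 kb away. The NF-κB list had 2 of 93, assigned to Tnfaip2 and Nfkbiz from 2.92 and 77.4 kb away. The microglia list had 0 of 39. The summed values within 1 kb of gene ends of the neural progenitor list were 11643 in NSPs, 8437 at 24 h and 9994 at 1 week, and those of the astrocyte list 6050, 5605 and 5288. For neuron, microglia and vascular genes the NSP sums were 2326, 414 and 646 and the 1 week sums 1893, 328 and 651.

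Between the TNF groups, whose libraries the rule did not use, the early-lost peaks went on falling. The comparison is not free of the rule, which held the untreated 72 h and 1 week means at or below 0.4 of the NSP mean. Median log2 fold changes of TNF against untreated cells were -0.00038 at 24 h and 0.019 at 72 h. Peaks that rose after 24 h were thus less likely to be chosen, and the part of this in the counts was not tested. In TNF-treated cells, 499 of the 2890 (17.3%) were lower at 72 h than at 24 h by limma-trend with a Benjamini-Hochberg adjusted p under 0.05, where 11.5% of the 88919 peaks tested were called lower. Only 9 (0.311%) were higher, where 10.3% of all peaks were. All 2890 had passed the filter on low values. The median log2 fold change was -0.39 (-0.01 over all peaks), and 2353 of the early-lost peaks had a negative value. Chosen without NSP replicate 1, 624 of 3791 (16.5%) were lower and 11 higher. The calls rose with the level of the peaks, from 4.87% of those with a mean under 30 in both groups together to 31.8% of those at 120 or more, where 6.95% and 13.5% of all peaks of those levels were called. Of the 1837 peaks lost after 24 h, 899 (48.9%) were called lower and 0 higher. That set was chosen for untreated means that fell after 24 h, so its shares are descriptions. Without 72 h TNF replicate 1, 289 early-lost peaks were called lower, and without 24 h TNF replicates 1, 2 and 3, 329, 331 and 314. The higher calls fell to 3 without 72 h TNF replicate 3 and to 5 without any other library of the 2 groups. For these fits the share of all peaks called is not given. The tag in the library names separates these groups, and its part cannot be told apart from time.

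Hes5 was among the 3 clearest of these decreases. Its TNF values were 647, 659 and 720 at 24 h and 218, 299 and 295 at 72 h, without overlap (log2 fold change -1.33 ± 0.16 SE, limma-trend Benjamini-Hochberg adjusted p = 7.38e-07). A peak near Kiz went from 527, 542 and 550 to 198, 273 and 282 (-1.12 ± 0.13, adjusted p = 2.94e-07). A peak in Tmem255b went from 403, 400 and 354 to 147, 157 and 131 (-1.41 ± 0.18, adjusted p = 1.35e-06). By list, 4 of the 14 oligodendrocyte lineage peaks were called lower, as were 3 of the 10 Notch peaks (Hes5, Maml2 and Nrarp). So were 2 of the 19 EGF and ERK peaks (Ier3 and Phlda1) and 2 of 16 astrocyte peaks. The rest were 1 of 11 proneural peaks (Neurod4) and 1 of 3 cell cycle peaks (assigned to Mki67 from 330 kb away). In the other lists 0 were called, and 0 of any list were called higher.

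The 9 that were higher at 72 h included peaks at Stat3, which encodes the transcription factor downstream of gliogenic cytokines, Lrrc8b and Chst11. The Stat3 peak (chr11:100897862-100898838) had 183, 170 and 191 at 24 h with TNF and 282, 275 and 283 at 72 h with TNF (0.63 ± 0.17, adjusted p = 0.00844). Its untreated libraries lay at 116 to 137 at 24 h and 134 to 179 at 72 h. The Lrrc8b peak rose from 93.7, 69.0 and 74.8 to 140, 133 and 126 (0.75 ± 0.18, adjusted p = 0.00365). The Chst11 peak went from 92.8, 65.7 and 108 to 140, 133 and 156 (0.71 ± 0.22, adjusted p = 0.0196), and it was no longer called without 24 h TNF replicate 2 or without 72 h TNF replicate 1 or 3 (0.51 to 0.72), or with a block by library-name numbers (0.58).

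**Figure D4:**
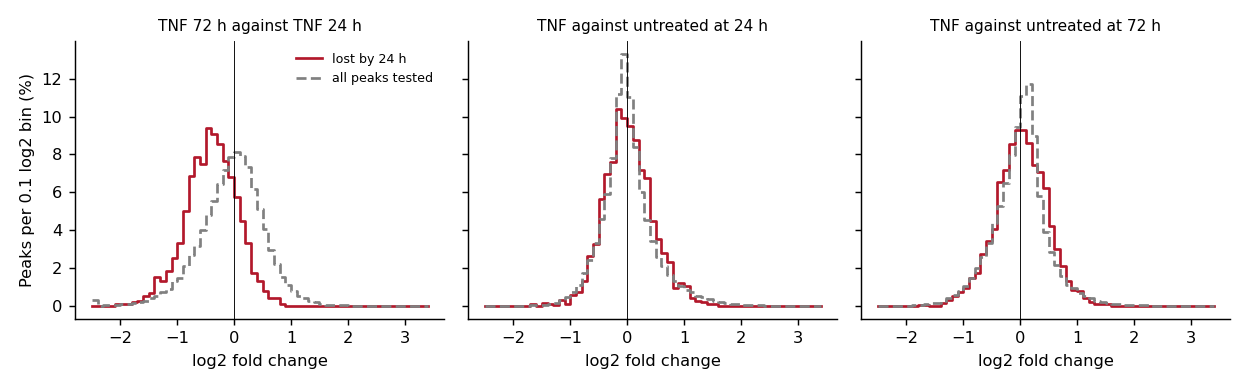
Distribution of log2 fold changes (log2(value + 1), limma-trend) of the 2890 early-lost peaks (red) and of all 88919 peaks tested (grey, dashed) in 3 comparisons, as percent of peaks per bin of 0.1; values beyond the axis ends are counted in the end bins. The red curve is shifted to the left for TNF 72 h against TNF 24 h, with a median of -0.39, and centred near 0 for TNF against untreated cells.

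TNF against untreated cells moved early-lost peaks in both directions. At 24 h, 96 of 2890 (3.32%) were higher with TNF and 46 (1.59%) were lower, where 7.06% and 3.53% of all peaks tested were called. At 72 h, 108 (3.74%) were higher and 51 (1.76%) lower, against 6.24% and 5.55%. The untreated libraries of these comparisons took part in the choice of the peaks and the TNF libraries did not. A rule that caps the untreated means takes in peaks whose untreated libraries were low, which tilts these counts towards higher with TNF by an amount that was not measured, so counts and directions are descriptions. The early-lost peaks also had lower values than all peaks tested, with a median SE of 0.320 against 0.241 on the log2 scale. Among peaks with a mean of at least 120 over both groups compared, 8.59% of the early-lost peaks and 8.19% of all were higher at 24 h, and 14.2% and 9.03% at 72 h. The shares lower at that level were 5.19% and 5.08% at 24 h and 3.91% and 6.56% at 72 h. The median log2 fold changes were near 0 at 24 h (all peaks -0.03) and 0.02 at 72 h (0.03). Of the peaks called higher, 39 were called at both times, which is 40.6% of those at 24 h and 36.1% of those at 72 h, and of those called lower 9 were, which is 19.6% and 17.6%. Over all peaks the shares were 51.7% and 58.5% for higher and 52.7% and 33.5% for lower. The 2 comparisons share no library, but the fit used the same estimate of spread for a peak in both. Calls at the 2 times are therefore not independent. Alternative fits of the 2 comparisons follow without the share of all peaks called, so they show only how the counts varied. Fits on only the groups compared gave more calls, 189 higher and 105 lower at 24 h and 184 and 81 at 72 h. DESeq2 called 73 lower at 24 h, and scaling by total called 86 lower at 72 h. A block by the number in the library name left 70 called higher at 72 h. Single libraries lowered these counts. Without 24 h TNF replicates 2 and 3, and without untreated replicates 1 and 3, left out in turn, 57, 38, 52 and 61 were called higher at 24 h. Without 24 h TNF replicates 1 and 3, and untreated replicates 1 and 2, 24, 19, 20 and 13 were called lower. At 72 h, 65 were called higher without TNF replicate 3 and 67 without untreated replicate 1, and 25, 24, 32 and 27 were called lower without TNF replicate 1 and untreated replicates 1, 2 and 3. For the change of the TNF effect between 24 h and 72 h, 0 of 2890 were called by limma-trend, edgeR or DESeq2. By limma-trend 0.00112% of all peaks were. An unadjusted p under 0.05 was found at 166 (5.74%) by limma-trend, and at 170 (5.88%) by edgeR and by DESeq2. Of these, the TNF effect was larger at 72 h at 110 and smaller at 56 by limma-trend. The split was 103 and 67 by edgeR and 112 and 58 by DESeq2. The share over all peaks was not counted, so these counts are not read as a result about the early-lost peaks.

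With TNF, the mean was above 0.4 of the NSP mean at 560 peaks at 24 h and at 246 at 72 h, and above 0.6 at 80 and 26. It reached the NSP mean at 4 and 2 peaks. The rule capped the untreated means at 0.4 of the NSP mean and set no limit on the TNF means. Scatter alone can therefore carry TNF means past 0.4, by an amount that was not measured. The median ratio was no higher with TNF, at 0.303 against 0.316 untreated at 24 h and 0.235 against 0.238 at 72 h. The 96 peaks called higher at 24 h had a median ratio to NSP of 0.585 with TNF, and the 108 at 72 h of 0.413.

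A small number of the early-lost peaks was high in all TNF libraries. Their untreated libraries took part in the choice of the peaks, and those named here had the smallest p. The adjusted p-values are therefore descriptions, as the counts are. The peak 17.6 kb from Kcnip1, which encodes a potassium channel interacting protein, had 37.4, 126 and 136 in NSPs, 23.9, 31.0 and 38.2 at 24 h and 27.0, 26.3 and 25.5 at 72 h. With TNF it had 241, 217 and 263 at 24 h and 184, 226 and 179 at 72 h, above every NSP library (2.93 ± 0.38, adjusted p = 4.17e-06 at 24 h; 2.85 ± 0.38, adjusted p = 6.35e-06 at 72 h; limma-trend). NSP replicate 1 was within the untreated range there. A peak 239 kb from Zswim6 had 140, 370 and 320 in NSPs and 69.5 to 76.4 at 24 h without TNF, and 305, 386 and 387 with it (2.26 ± 0.27, adjusted p = 1.57e-06). At 72 h it had 47.6 to 84.9 without and 310, 265 and 287 with TNF (2.09 ± 0.27, adjusted p = 5.10e-06). The peak 0.976 kb from Lypla2 had 638, 712 and 762 in NSPs, 183, 279 and 170 at 24 h, and 604, 561 and 681 at 24 h with TNF (1.57 ± 0.17, adjusted p = 2.25e-07). In Creb5, which encodes a transcription factor that binds cyclic AMP response elements, a peak had 151, 121 and 125 at 72 h and 398, 448 and 433 with TNF (1.69 ± 0.18, adjusted p = 2.58e-07).

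Among the list members few were called with TNF. The untreated libraries took part in the choice here too, so these adjusted p-values are also descriptions. At 24 h 1 of 10 Notch peaks (Heyl) and 1 of 6 neural progenitor peaks (Zic1) were higher, 0 of the other lists were higher, and 0 of any list were lower. At 72 h the same 2 peaks were higher, with 3 of 14 oligodendrocyte lineage peaks (each assigned to Olig2), 1 of 11 proneural (Sox11) and 1 of 2 NF-κB peaks (Nfkbiz), and 1 oligodendrocyte lineage peak (Pdgfra) was lower. None of the EGF and ERK, cell cycle, astrocyte, neuron or vascular peaks was called at either time. The Heyl peak, 2.54 kb from the gene, had 460, 724 and 666 in NSPs, 197, 242 and 225 at 24 h and 167, 141 and 181 at 72 h. With TNF it had 464, 487 and 482 and then 348, 361 and 401, which overlapped the NSP range only at 24 h (1.11 ± 0.18, adjusted p = 8.73e-05, and 1.18 ± 0.18, adjusted p = 3.86e-05). The Zic1 peak, 520 kb away, had 44.4, 55.1 and 71.1 in NSPs, 7.97, 23.6 and 16.0 at 24 h and 69.0, 62.5 and 48.8 at 24 h with TNF (1.96 ± 0.42, adjusted p = 0.00188), and at 72 h 9.01, 13.2 and 20.4 against 41.1, 63.6 and 55.2 (adjusted p = 0.00262). The Olig2 peak at 4.97 kb had 59.2, 77.8 and 58.6 at 72 h and 164, 158 and 169 with TNF (1.33 ± 0.21, adjusted p = 5.54e-05). At 24 h the same peak had 155, 143 and 140 against 212, 184 and 226 (0.50 ± 0.21, adjusted p = 0.130). The fourth Olig2 peak, at 32.7 kb, had a log2 fold change of 0.01 at 72 h (adjusted p = 0.993). The Pdgfra peak at 149 kb had 46.3, 25.1 and 61.2 at 72 h and 5.36, 8.87 and 36.0 with TNF (-1.68 ± 0.48, adjusted p = 0.0184), and its groups overlapped. The Nfkbiz peak, near a gene that NF-κB induces, had a mean of 101 against 144 at 24 h (adjusted p = 0.166) and 99.1 against 166 at 72 h (adjusted p = 0.0318).

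**Figure D5:**
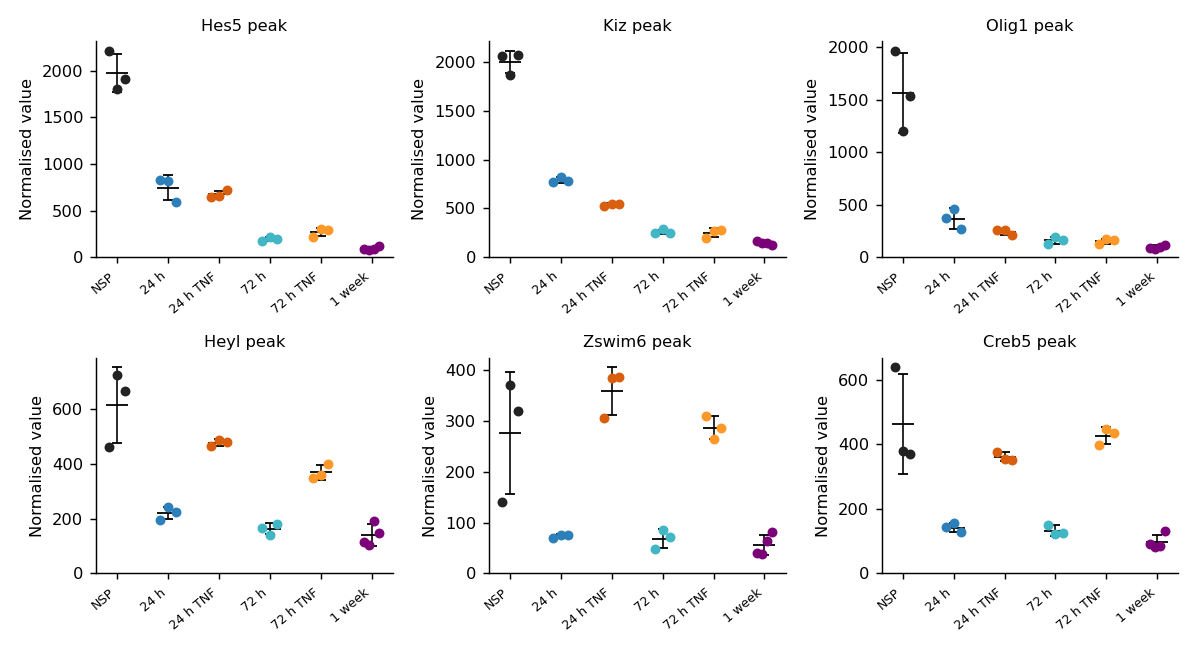
Normalised value in each library (points, with mean ± SD per group; y axes start at 0) of 6 early-lost peaks: Hes5, Kiz and Olig1, which were lower at 72 h than at 24 h with and without TNF, and Heyl, Zswim6 and Creb5, which were higher in every TNF library than in the untreated libraries of the same time. The Hes5 peak goes from a mean of 1976 in NSPs to 93.0 at 1 week.

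Other early-lost peaks were lower still with TNF. They too were named for the smallest p, and the same limit holds for their adjusted p-values. At 24 h the clearest were in Ahcyl1, with 247, 263 and 182 without and 122, 97.0 and 88.3 with TNF (-1.16 ± 0.22, adjusted p = 0.000589), in Hsd11b1, an enzyme gene of glucocorticoid activation (-0.81 ± 0.17, adjusted p = 0.00173), and near Traf3ip2, which encodes an adaptor of IL-17 signalling (-0.63 ± 0.12, adjusted p = 0.000842). At 72 h they were at Plxnb3, near Car8 and near Marcks. The Plxnb3 promoter peak, at a semaphorin receptor gene whose upstream sequence is given above, had 211, 227 and 246 without and 78.7, 112 and 114 with TNF (-1.18 ± 0.16, adjusted p = 1.13e-05), and at 24 h 269, 243 and 196 against 164, 169 and 183 (-0.44 ± 0.16, adjusted p = 0.0793). The values without and with TNF at 72 h were 213 to 275 and 104 to 121 near Car8 (-1.13 ± 0.17, adjusted p = 5.29e-05) and 183 to 277 and 116 to 143 near Marcks (-0.84 ± 0.15, adjusted p = 0.000199).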

How the data were processed

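ATAC-seq values of 19 libraries in 6 groups were taken from 1 table of 90154 peaks. According to the study's methods and the submitters' processing notes, the authors used FastQC, Trim Galore, Bowtie2, SAMtools and MACS2 with build mm10, and DiffBind for differential accessibility. They removed mitochondrial reads and peaks in blacklisted regions. Versions, duplicate removal, normalisation and any shift of reads for the transposase were not given in the sources used here. The deposited values are a normalised signal, made by the authors for each library at each of the peaks, most of them 500 bases long. Every value (100%, tolerance 0.01 of a read) could be turned back into whole reads, 1 read being worth 0.471 to 2.20, and the libraries held 9640256 to 39349111 reads in peaks, with most in NSPs. The lowest listed value is 1 read.

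Members, lists of genes and the naming rule were all chosen with earlier results of these data known. Named were the 10 members with the highest NSP mean, the 5 with the lowest 24 h ratio, for each TNF comparison and direction the 3 calls with the smallest p whose libraries did not overlap, up to 3 members per gene list by NSP mean, 2 peaks on each side of each limit and the 10 genes with most members. Stretches, further list members and promoter windows were picked after values were seen. As the values are normalised, the test was limma-trend, from limma 3.58.1 under R 4.3.3, on log2(value + 1) with a mean per group over all libraries, on 88919 peaks kept by edgeR's filterByExpr (minimum count 10). P-values were two-sided and Benjamini-Hochberg adjusted, and calls have an adjusted p under 0.05. This scale understates changes of low peaks. The fits were tested on simulated data. Alternatives used edgeR 4.0.16 and DESeq2 1.42.0 on recovered reads, other scalings, pseudocounts and filters, and left-out libraries. Gene positions and promoters are RefSeq for GRCm38.p6, the assembly of mm10; that table gives no strand or exons, so introns and UTRs were not assigned. A peak was given to the genes it overlaps, else to the nearest. Same-numbered libraries of different groups did not deviate together (correlations from -0.045 to 0.107), so the numbers were not used as pairs. In the 72 h TNF group the library names carry the numbers 2 to 4 where the titles have 1 to 3. With the library-name numbers the correlations lay between -0.042 and 0.107. No genome sequence was used, so motifs outside promoters were not searched.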

Additional observations from a re-analysis of the deposited data

Results flagged for a closer look

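In the 1 week group, the only one with 4 libraries, 61 values were checked for a library far from the others, and 5 stood out; chance gives about 1 in 20. The Egfr peak was 310 in 1 library and 265 to 272 in the other 3. The Mcur1 peak was 563 against 687 to 712. The Nfia peak at chr4:97647546 was 150 against 74.8 to 86.4, the Cdh5 peak at chr8:104095603 was 29.0 against 14.1 to 15.6, and the 4931429L15Rik peak was 15.4 against 0.779 to 1.07, where the other 3 libraries stood at the worth of 1 read.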

How the results depend on the processing

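The number of early-lost peaks depended on the limits and the scaling. It was 1064 with a ratio of at most 0.3, 5584 with 0.5 and 1834 after scaling by total reads in peaks, against 2890, and ranged from 2402 to 3791 when 1 library was left out. The share within 1 kb of gene ends, 3.32%, was 1.66% within 500 bp, 13.8% within 5 kb and, by an alternative chosen after seeing the data, 1.55% for gene starts alone. Fits on only the groups compared, which estimate the spread from fewer libraries, called 802 lower and 18 higher for TNF 72 h against TNF 24 h, 189 higher and 105 lower for TNF at 24 h, 184 higher and 81 lower for TNF at 72 h, and 1 for the change of the TNF effect. DESeq2 called 73 lower with TNF at 24 h, and scaling by total called 86 lower at 72 h; the cause was not tested. With 1 library left out, calls ranged from 289 to 422 lower and 3 to 5 higher for TNF 72 h against TNF 24 h, from 38 to 82 higher and 13 to 68 lower at 24 h, from 65 to 92 higher and 24 to 44 lower at 72 h, and were 0 for the change of the effect. The replicate block gave 502 lower and 8 higher, 100 higher and 43 lower, and 112 higher and 52 lower and 0 for the change of the effect, all within 1.5 times. A block by library-name numbers, chosen after seeing the data, gave 504 lower and 4 higher, 100 higher and 45 lower, and 70 higher and 45 lower, and 0 for the change of the effect. Neither numbering is known to pair the samples. All these counts are given without the share of all peaks called by the same fit, so they show only how the number of calls varied. Of the named TNF calls under their alternatives, 266 values kept direction and call, 4 (Chst11) kept direction only and 0 reversed. Of early-lost peaks with a mean under 30, 0 of 655 were called higher with TNF at 24 h, against 2.36% of all peaks at that level; the cause was not tested.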
